A study of Mus musculus with 6 samples.

Results

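Inhibitory receptors of T and NK cells were described here by 9 genes of the 20882 gene columns in the deposited tables: Pdcd1, Ctla4, Btla, Tigit, Lag3, Havcr2, Cd244a, Cd160 and Tox. They were taken by name, with no cut on a measured value but with earlier results of these data known, and all 9 were found. The leukocytes came from the lungs of humanized PD-1 mice, aged 6 to 8 weeks, that had received either a PD-1 agonist or an isotype control, in a study of neutrophilic asthma. Every mouse of both groups carried the humanized PD-1, and the labels do not say which stretch of the gene is human, so transcript outside the mouse annotation may be missing from the Pdcd1 counts. Live CD45+ cells were sorted and run as 10x Genomics single-cell libraries. By the labels, cell hashing was used to mix 3 samples of each group, about 50000 cells per group. The column of treatments in the tables calls the isotype cells untreated.

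Each group had 3 tables. The labels title each as a mouse of its own, but the tables could not be used as separate samples, since they shared cell barcodes. Tables of the same group shared 2373 to 2736 cell barcodes per pair, 35.9% to 42.5% of the smaller table, against 3 to 13 barcodes, 0.0469% to 0.201%, for tables of different groups. Each barcode was therefore used 1 time per group, from the record with its highest total, which gave 1 library of 11175 PD-1 agonist cells and 1 library of 10285 isotype cells after the authors' filter and the removal of doublets. The median depth was 2214 counts per cell in the agonist library and 2532 in the isotype library, and in T cells 2494 and 2861. Since each group is 1 library, the groups could not be tested against each other, differences have no check in replicates, and an effect of the treatment and one of the library cannot be told apart. All intervals are exact 95% intervals of the counting error and hold no spread between mice. Those of levels and ratios take each count as independent, although a cell can hold several. They therefore also leave out spread between cells and can be too narrow. Levels are CPM, counts of the gene relative to all counts of the cell class after scaling with TMM factors, and ratios are log2 of PD-1 agonist over isotype. Only the CPM given for each of the 3 tables of a group are relative to plain totals, without TMM factors. Fewer cells that transcribe a gene and less transcript per cell are not separated by a CPM value, so shares of cells with a count are given beside it.

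Inhibitory receptors are surface proteins that dampen the activation of T and NK cells, most of them through tyrosine motifs in their tails that recruit phosphatases. Many are absent from naive T cells, are induced by antigen receptor signalling, and are found together on T cells that have met antigen for a long time. PD-1 (Pdcd1), CTLA-4 (Ctla4) and BTLA (Btla) belong to the CD28 family. TIGIT (Tigit) binds the poliovirus receptor family, LAG-3 (Lag3) is a CD4-like protein that binds MHC class II, TIM-3 (Havcr2) binds phosphatidylserine and galectin-9, 2B4 (Cd244a) is a SLAM family receptor of CD48, and CD160 (Cd160) shares the ligand HVEM with BTLA. Tox is no receptor but a nuclear factor that is needed for the exhausted state of chronically stimulated T cells.

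By the GENCODE annotation of GRCm38 (mm10), Pdcd1 lies on chromosome 1 from 94038305 to 94052553 on the minus strand, and Ctla4 on chromosome 1 from 60887000 to 60915832 on the plus strand, 114 kb from Cd28 and 62.1 kb from Icos. Lag3 lies on chromosome 6 from 124904361 to 124911705 on the minus strand, 16.1 kb from Cd4, the gene of its structural relative. Cd244a lies on chromosome 1 from 171559193 to 171609746 on the plus strand, 72.3 kb from Cd48, the gene of its ligand. Btla is at 45224315 to 45257670 on the plus strand and Tigit at 43648867 to 43664146 on the minus strand, both on chromosome 16. Havcr2 occupies chromosome 11 from 46454935 to 46481255 on the plus strand, Cd160 chromosome 3 from 96798763 to 96829351 on the minus strand, and Tox chromosome 4 from 6686353 to 6991557 on the minus strand. Exons of Cd160 overlap those of Pdzk1 on the opposite strand, and whether counting used strand is not given in the sources used here. Pdzk1 had 1 count in the T cells of each library, so its column took almost nothing. Tox overlaps an exon of the antisense gene Gm11802, which has no column of its own, so reads of the pair cannot be told apart. Of the 31-mers of all annotated transcripts of a member, 7.58% were found in another gene for Tigit. The share was at most 1.65% for any of the other 8 members, and 0% for Pdcd1, Ctla4, Btla, Cd160 and Cd244a.

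Windows of 300 bases around the RefSeq transcription start were chosen for Pdcd1, Ctla4, Lag3 and Tox. Those of Pdcd1 and Ctla4 are shown, as none was matched for Lag3 and Tox. Pdcd1 and Ctla4 are both known to be induced through NFAT, the factor that reads calcium signals of the antigen receptor. The sequences are from RefSeq on GRCm38.p6, chr1:94052504-94052803 on the minus strand for Pdcd1 and chr1:60908775-60909074 on the plus strand for Ctla4, whose RefSeq start lies inside the GENCODE span because GENCODE begins the gene further upstream, with capitals at each match to GGAAA, the core of an NFAT site, on either strand.
Pdcd1: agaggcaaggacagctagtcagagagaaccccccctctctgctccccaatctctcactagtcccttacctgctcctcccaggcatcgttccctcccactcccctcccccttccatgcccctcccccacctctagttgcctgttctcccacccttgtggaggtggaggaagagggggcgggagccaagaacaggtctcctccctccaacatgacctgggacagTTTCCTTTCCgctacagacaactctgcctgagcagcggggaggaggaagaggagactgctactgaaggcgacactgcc
Ctla4: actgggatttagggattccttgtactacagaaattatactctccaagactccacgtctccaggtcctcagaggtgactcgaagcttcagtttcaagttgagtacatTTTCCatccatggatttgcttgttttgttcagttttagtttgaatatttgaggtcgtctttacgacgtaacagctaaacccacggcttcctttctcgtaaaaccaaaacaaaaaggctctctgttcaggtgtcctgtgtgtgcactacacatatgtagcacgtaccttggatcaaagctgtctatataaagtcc
Pdcd1 held 2 matches side by side, at -28 and -23 relative to the start, and Ctla4 held 1 at -144. GGAAA occurs in 61.3% of 27025 promoter windows of the same length and at least 2 times in 27%. Neither window held TGANTCA, the AP-1 motif found in 7.93% of windows, or TGTGGT, the RUNX motif found in 16.9%, with both strands searched. RefSeq windows were matched for 7 of the 9 members, all but Lag3 and Tox.

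Cells were clustered without the members among the variable genes and named from marker lists, so each class name below is to be read as "-like". No name was given to 4.24% of the agonist and 4.04% of the isotype cells. T cells were 2222 agonist and 2326 isotype cells with all 10 T cell markers detected, and NK cells, the Ncr1 and Klra8 cells, were 1214 and 1117 with all 11 NK markers detected. The make-up of the T cells differed between the libraries. Naive-type cells, with Lef1 and Tcf7, were 52.8% of agonist and 43.1% of isotype T cells, CD8 effector-memory-type cells, led by Gzmk, were 3.74% and 5.93%, and regulatory cells, led by Foxp3, were 4.82% and 6.32%. That make-up and the depth move with the values of all T cells below. For the make-up, values are given with the 10 T cell classes at shared weights, which are the same in both libraries (the counts of each class over both), and as a plain mean over the 10 classes. For the depth, thinned shares are given, from 1000 counts drawn per cell.

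**Figure D1:**
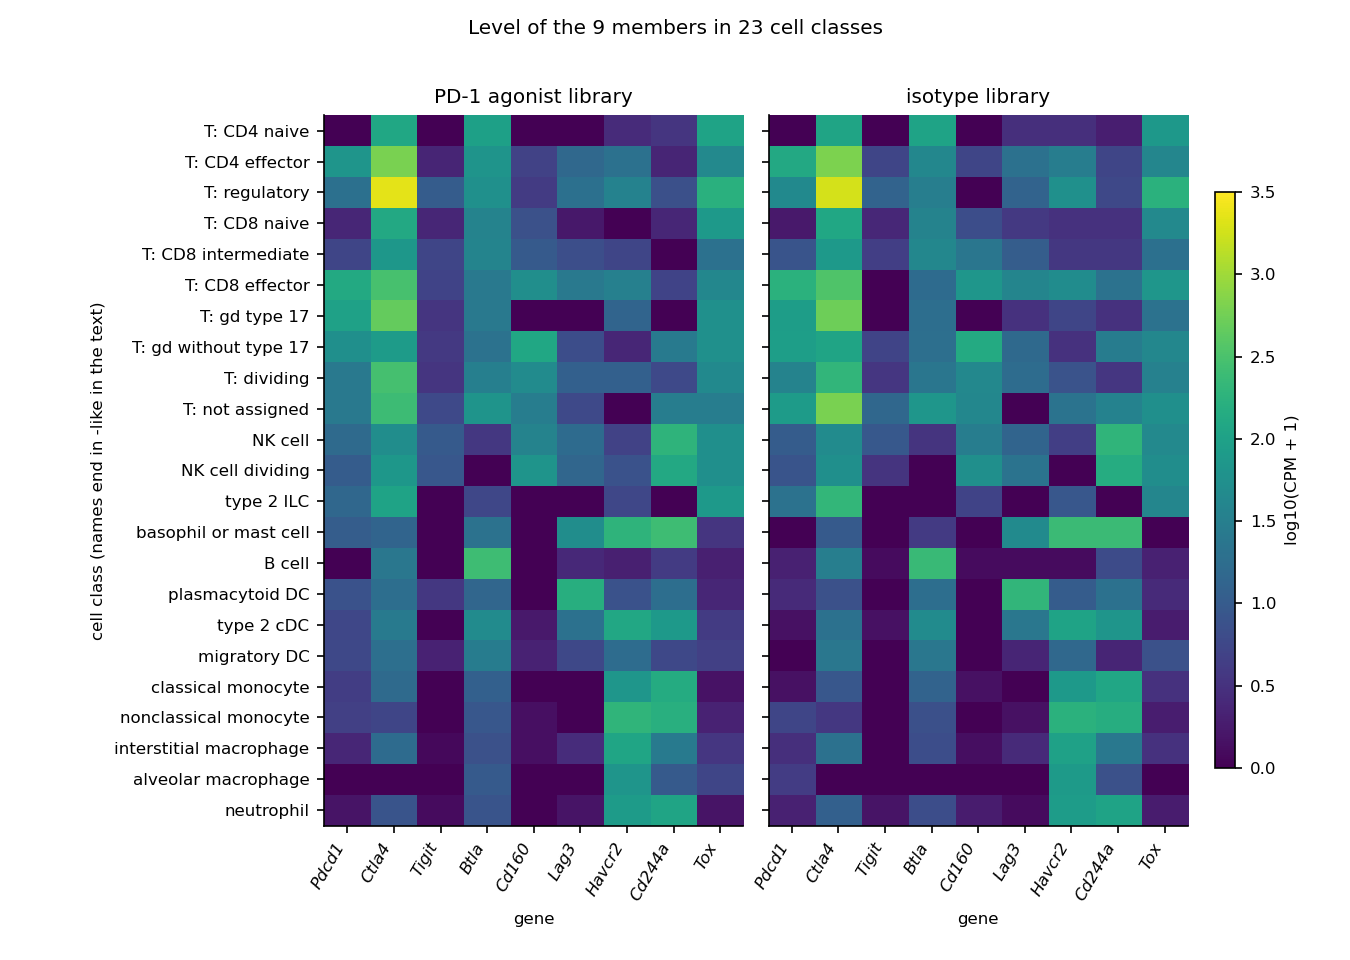
Heat map of the level of the 9 members (columns) in 23 cell classes (rows), as log10 of CPM plus 1 by colour, with the PD-1 agonist library in the left panel and the isotype library in the right. Pdcd1 and Ctla4 are brightest in T cell classes, Lag3 in plasmacytoid dendritic cells, and Btla in B cells. Havcr2 is brightest in basophils or mast cells and myeloid classes, and Cd244a in basophils or mast cells, NK cells and monocytes.

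Pdcd1, the receptor that the agonist binds, was highest in T cell classes. Of its counts in named classes, T cells held 64.1% in the agonist library and 84.2% in the isotype library. NK cells, dividing NK cells included, held 18.9% and 8.01%. CD8 effector-memory-type cells were highest, with 131 CPM in agonist and 170 CPM in isotype cells. Next were CD4 effector-memory-type cells with 66.2 and 127 CPM, type 17 gamma-delta cells with 101 and 87.9 CPM, and gamma-delta cells without type 17 markers with 55.1 and 89.8 CPM. In that order each class overlapped the next within its counting interval, in both libraries, except that CD8 effector-memory-type cells of the agonist library (89.6 to 185 CPM) lay just above CD4 effector-memory-type cells (49.3 to 87 CPM). Pdcd1 had no count in 606 agonist and 505 isotype naive-type CD4 cells, which allows a level of up to 2.49 and 2.88 CPM, and 2 and 1 counts in naive-type CD8 cells. As a background, 0.0908% of agonist neutrophils and 0.165% of isotype neutrophils had a Pdcd1 count, at median depths of 1502 and 1630 counts, and 0% and 0.165% of B cells, at 1534 and 1677 counts. These are among the lowest classes. Myeloid and dendritic classes together held 14.7% of the agonist and 5.95% of the isotype Pdcd1 counts. Type 2 conventional dendritic cells had 12 agonist counts and 1 isotype count, or 4.54 and 0.424 CPM. Basophils or mast cells, which are outside that sum, had 4 and 0 counts, or 9.86 and 0 CPM.

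In all T cells Pdcd1 had 200 counts in the agonist library and 410 in the isotype library, or 29.6 and 50.1 CPM, a log2 ratio of -0.76 (-1.01 to -0.51). The share of T cells with a count was 4.55% (3.72% to 5.5%) in agonist and 7.31% (6.28% to 8.44%) in isotype cells, and after thinning 1.95% (1.41% to 2.63%) and 2.95% (2.3% to 3.73%). The intervals of the 2 libraries do not overlap before thinning and overlap after it. With T cell classes at shared weights the level was 31.7 CPM in agonist and 47.9 CPM in isotype cells, and as a plain mean over classes 42.8 and 64.6 CPM, a ratio of -0.59 either way. Over cells that carry the authors' own Cd3e flag, whatever their class, the ratio was -1.16. Before merging, the 3 agonist tables gave 33.5, 32.2 and 24.1 CPM and the 3 isotype ones 51.8, 51.7 and 46.3 CPM in T cells. All 3 agonist tables lay below all 3 isotype tables, but tables of a group share cells and are not replicates.

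**Figure D2:**
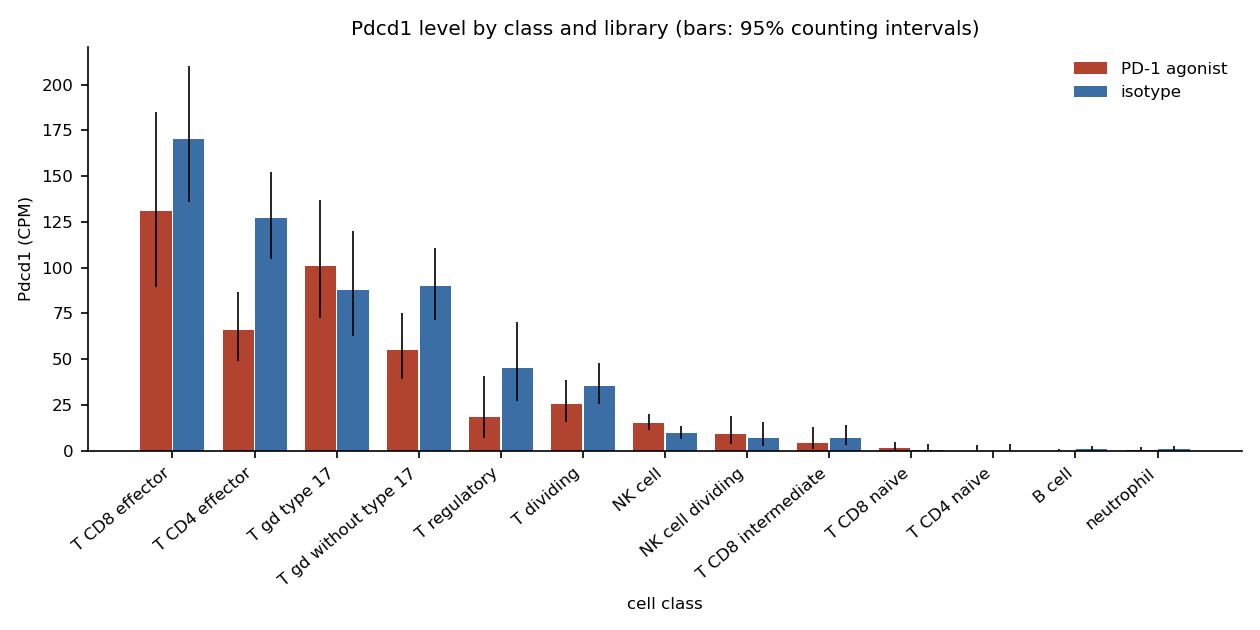
Pdcd1 level in CPM (vertical axis, from 0) by cell class, with the PD-1 agonist library left of the isotype library in each pair of bars and lines for 95% counting intervals. In CD4 effector-memory-type cells the bars stand at 66.2 CPM agonist and 127 CPM isotype with no overlap of the lines, and naive-type CD4 cells have no count in either library.

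The Pdcd1 ratio was not the same in all T cell classes, and whether it differs between them was not tested. In CD4 effector-memory-type cells there were 51 agonist and 118 isotype counts, a ratio of -0.94 (-1.45 to -0.46), and in gamma-delta cells without type 17 markers 39 and 85, a ratio of -0.70 (-1.29 to -0.14). Type 17 gamma-delta cells, which are innate-like producers of IL-17, had 41 agonist and 40 isotype counts and a ratio of 0.20 (-0.46 to 0.87). For CD8 effector-memory-type cells the ratio was -0.38 (-1.01 to 0.22), with 32 agonist and 86 isotype counts. The naive-type and effector-memory-type CD4 cells together had the same 51 and 118 counts, since none came from naive-type cells. That was 26 CPM in agonist and 59.4 CPM in isotype cells, a ratio of -1.19 (-1.69 to -0.70). Naive-type, intermediate and effector-memory-type CD8 cells together had 15.8 and 31 CPM, a ratio of -0.97 (-1.56 to -0.41). Dividing T cells and T cells with no further name are in neither sum. Both sums also carry the larger naive-type share of the agonist library, whose part in these ratios was not tested. Regulatory cells had 6 agonist counts, 5 of them in 1 cell, and 19 isotype counts. Type 17 gamma-delta, CD8 effector-memory-type and regulatory cells had intervals that span 0 or under 50 counts, so a difference was not detectable there at this depth. In CD4 effector-memory-type cells the share with a count was 11% in agonist and 15.3% in isotype cells, but 6.64% (3.84% to 10.6%) and 5.6% (3.17% to 9.06%) after thinning, so no order of the shares can be read for that class.

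In NK cells, unlike in all T cells, the Pdcd1 level was higher in the agonist library. Agonist NK cells had 52 counts and 15.4 CPM and isotype NK cells 33 counts and 9.58 CPM, a ratio of 0.68 (0.02 to 1.35). It was the 1 member of 7 with a ratio in NK cells that was at least 1.5-fold higher, against 5.11% of 9220 genes that were, and none was 1.5-fold lower, against 2.75% of genes. The share of NK cells with a count was 2.72% in agonist and 2.42% in isotype cells, and 1.28% and 1.2% after thinning. The ratio was 0.26 with doublets kept. The 3 agonist tables gave 11.3, 11.9 and 20.7 CPM in NK cells and the 3 isotype ones 9.96, 8.22 and 8.52 CPM. The summed level of the 10 T cell markers in NK cells was 1185 CPM in the agonist and 1140 CPM in the isotype library, and its part in the Pdcd1 counts was not tested.

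**Figure D3:**
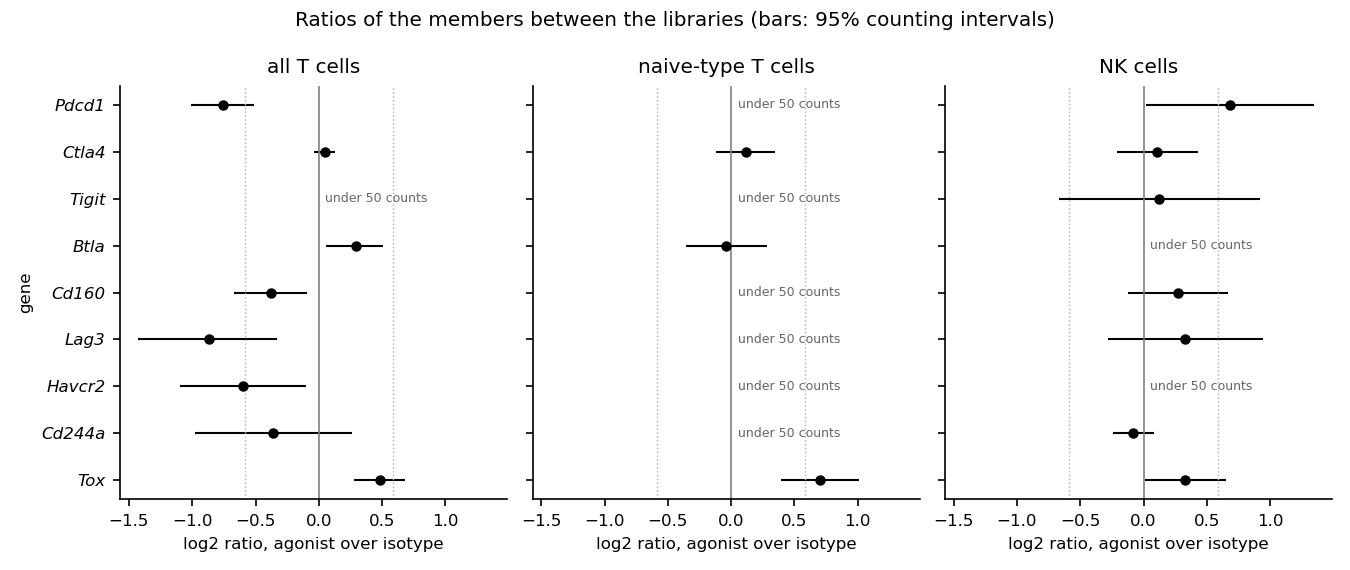
Log2 ratio of PD-1 agonist over isotype (horizontal axis) for the 9 members in all T cells, naive-type T cells and NK cells, with 95% counting intervals, a solid line at 0 and dotted lines at 1.5-fold; members under 50 counts have no point. In all T cells Pdcd1 (-0.76), Lag3 (-0.87) and Havcr2 (-0.60) lie beyond the lower dotted line, in naive-type cells Tox (0.70) beyond the upper, and in NK cells Pdcd1 (0.68).

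Across all T cells, 8 of the 9 members had at least 50 counts and so a ratio, all but Tigit. At least 1.5-fold lower were 3 members, Pdcd1, Lag3 and Havcr2, and none was 1.5-fold higher. Of 11190 genes with a ratio in T cells, 2.77% were at least 1.5-fold lower and 5.04% at least 1.5-fold higher. The median ratio of the 8 members was -0.37, against -0.02 over all genes. Intervals of 4 members lay below 0 (Pdcd1, Lag3, Havcr2 and Cd160) and of 2 above it (Tox and Btla), against 11% of the 11190 genes below and 11.1% above. Havcr2 lay close to the 1.5-fold limit and was inside it with doublets kept (-0.53), over Cd3e-flagged cells (-0.25), with shared class weights (-0.41) and from the lowest-total records (-0.41), while the plain mean over classes gave -0.59.

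**Figure D4:**
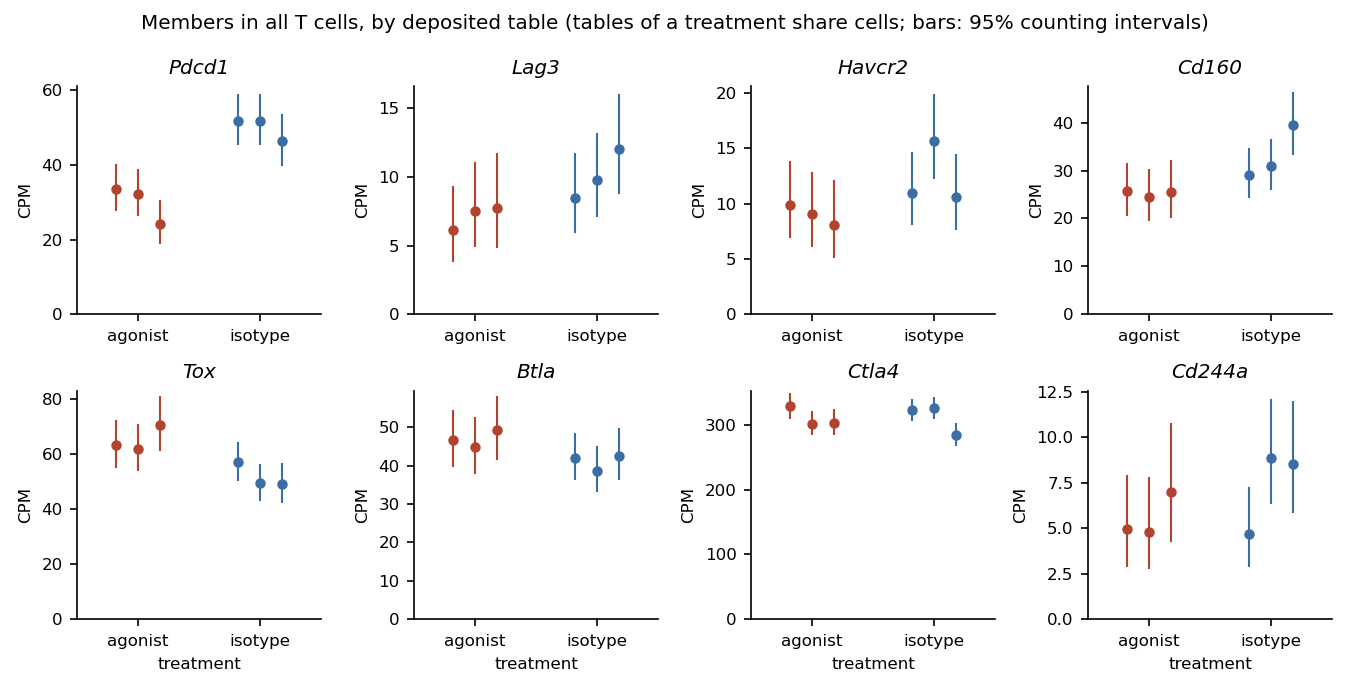
Level in all T cells in CPM (vertical axis, from 0) of 8 members in each of the 3 deposited tables of a group, PD-1 agonist left and isotype right, with 95% counting intervals. Tables of a group share cells, so the points are not replicates. These CPM are relative to plain totals, without TMM factors. Agonist points lie below isotype points for Pdcd1, Lag3, Havcr2 and Cd160 and above them for Tox and Btla, and overlap for Ctla4 and Cd244a.

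Ctla4, whose product takes CD80 and CD86 away from CD28 and is carried at high level by regulatory T cells, had 2207 T cell counts in the agonist and 2594 in the isotype library. The level in all T cells was 327 CPM in agonist and 317 CPM in isotype cells, a ratio of 0.05 (-0.04 to 0.13). Regulatory cells had 2294 and 1894 CPM, a ratio of 0.28 (0.13 to 0.42), and 89.7% of agonist and 91.2% of isotype regulatory cells had a count. The ratio in regulatory cells was 0.43 at the finer clustering. CD4 effector-memory-type cells had 624 and 635 CPM and type 17 gamma-delta cells 476 and 525 CPM. Ctla4 was also read in naive-type cells, at 122 agonist and 108 isotype CPM in CD4 cells and 127 and 119 CPM in CD8 cells. Dividing T cells had 292 CPM in the agonist and 202 CPM in the isotype library, a ratio of 0.53 (0.26 to 0.80). The small class of T cells with no further name, 33 agonist and 23 isotype cells, had 252 and 626 CPM, a ratio of -1.31 (-1.83 to -0.80).

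Among other cells, Ctla4 was lower in the agonist library in type 2 innate lymphoid cells, innate cells with Gata3 that make type 2 cytokines. The 56 agonist cells had 23 counts and the 70 isotype cells 52, or 105 and 208 CPM, a ratio of -0.99 (-1.76 to -0.25). The top agonist cell held 39.1% of the counts, and without the top cell of each library the ratio was -1.46. NK cells had 51.1 CPM in the agonist and 47.3 CPM in the isotype library. Classical monocytes had 32 agonist and 18 isotype counts, or 15 and 7.9 CPM, a ratio of 0.93 (0.05 to 1.85), with 10 of the 32 and 6 of the 18 in 1 cell. A Ctla4 count was found in 2.53% of agonist and 3.78% of isotype B cells and in 0.908% and 1.49% of neutrophils, which is the background for low shares of this gene.

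Btla, a receptor of HVEM on B and T cells, was mainly a B cell transcript in these lungs. B cells held 62.2% of its named counts in the agonist and 59.8% in the isotype library, at 261 and 233 CPM, a ratio of 0.16 (0.03 to 0.30). Of B cells, 35.3% in the agonist and 33.8% in the isotype library had a count. Among T cells it was highest in naive-type CD4 cells, with 97.9 agonist and 106 isotype CPM. All T cells had 48.7 and 39.9 CPM, a ratio of 0.29 (0.06 to 0.51), or 0.14 with shared class weights and 0.20 as a plain mean over classes. CD4 effector-memory-type cells had 63.6 CPM in agonist and 40.9 CPM in isotype cells, a ratio of 0.63 with an interval that reaches 0 (-0.01 to 1.29). There 1 of 4 members was at least 1.5-fold higher and 1 lower, against 6.46% and 4.96% of 5262 genes.

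Tigit, a receptor that competes with CD226 for the poliovirus receptor, was close to the limit of detection. It had 16 agonist and 24 isotype counts in all T cells and 30 and 28 in NK cells, where its ratio was 0.12 (-0.67 to 0.92). NK cells, dividing NK cells included, held 63.2% of its counts in the agonist and 51.7% in the isotype library. Regulatory T cells, in which TIGIT protein is well known, had 3 agonist and 5 isotype counts, from far fewer cells. Their level was 9.35 CPM in the agonist and 11.9 CPM in the isotype library, against 8.86 and 8.13 CPM in NK cells.

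Lag3 was most abundant outside the T and NK cells. Plasmacytoid dendritic cells, the Siglech cells that make type I interferon and are known to carry LAG-3 in mice, had 117 counts and 157 CPM in the agonist and 126 counts and 201 CPM in the isotype library, a ratio of -0.36 (-0.74 to 0.01). A count was found in 46.4% of agonist and 56.9% of isotype plasmacytoid cells, and in 12.7% and 19.7% after thinning. Myeloid and dendritic classes together held 58% of the Lag3 counts in the agonist and 53.2% in the isotype library. T cells held 13.4% (9.81% to 17.6%) and 25.6% (21.2% to 30.4%).

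In all T cells Lag3 had 42 agonist and 93 isotype counts, or 6.22 and 11.4 CPM, a ratio of -0.87 (-1.43 to -0.33), -0.64 with shared class weights and -0.45 as a plain mean over classes. The 3 agonist tables gave 6.12, 7.53 and 7.7 CPM and the 3 isotype ones 8.44, 9.79 and 12 CPM. A Lag3 count was found in 1.49% (1.02% to 2.08%) of agonist and 2.97% (2.32% to 3.74%) of isotype T cells, and in 0.419% (0.192% to 0.794%) and 0.926% (0.574% to 1.41%) after thinning. The agonist and isotype intervals of the unthinned share do not overlap, and those of the thinned share do. Lag3 counts were rarer in B cells, at 0.281% of agonist and 0.0549% of isotype cells. CD8 effector-memory-type cells had the highest Lag3 level among T cells, 24.6 CPM in agonist and 37.6 CPM in isotype cells, from 6 and 19 counts. No single T cell class had the 50 counts needed for a ratio. NK cells had 53 agonist and 43 isotype counts and a ratio of 0.33 (-0.28 to 0.94).

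Havcr2 was a myeloid transcript, with 92.5% of its named counts in myeloid and dendritic classes of the agonist library and 89.8% in those of the isotype library. Basophils or mast cells, counted outside those classes, had 190 CPM in agonist and 241 CPM in isotype cells. Nonclassical monocytes had 192 and 169 CPM, type 2 conventional dendritic cells 126 and 105 CPM, and neutrophils 82.5 and 86.3 CPM. The ratio was 0.26 (0.02 to 0.51) in type 2 conventional dendritic cells and 0.20 (0.03 to 0.37) in interstitial macrophages. T cells had 54 agonist and 99 isotype counts, or 8 and 12.1 CPM, a ratio of -0.60 (-1.10 to -0.10). The share of T cells with a count was 1.89% in the agonist and 2.97% in the isotype library, below the 8.9% and 11.5% of neutrophils. Regulatory cells, at 34.3 agonist and 56.9 isotype CPM, and CD8 effector-memory-type cells, at 32.7 and 49.5 CPM, were the highest T cell classes, each on under 50 counts. In T cells the 12 neutrophil markers summed to 174 CPM in the agonist and 112 CPM in the isotype library and the 12 interstitial macrophage markers to 93.8 and 93.1 CPM, and their part in the Havcr2 counts was not tested.

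Cd244a, a receptor that signals through SAP adaptors and that NK cells use broadly, was shared by NK and myeloid cells. NK cells had 186 CPM in the agonist and 197 CPM in the isotype library, a ratio of -0.08. Together with dividing NK cells they held 31.2% and 35.3% of its counts. Basophils or mast cells had 261 agonist and 241 isotype CPM, nonclassical monocytes 160 and 152 CPM, classical monocytes 142 and 118 CPM (ratio 0.27, 0.03 to 0.51), and neutrophils 108 and 106 CPM. T cells held 1.63% of the counts in the agonist and 2.6% in the isotype library, and their ratio was -0.36 (-0.98 to 0.26).

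Cd160, a GPI-anchored receptor of NK cells and cytotoxic T cells, was nearly all in lymphocytes. T cells held 48.2% of its counts in the agonist and 62.4% in the isotype library. NK cells, dividing NK cells included, held 50% and 35.6%. Gamma-delta cells without type 17 markers were highest, at 119 agonist and 136 isotype CPM, and 29.2% and 32.4% of them had a count. Naive-type CD4 cells had no count in either library. In naive-type, intermediate and effector-memory-type CD8 T cells together Cd160 had 28 agonist and 68 isotype counts, or 12 and 22.2 CPM, a ratio of -0.89 (-1.58 to -0.23). CD8 T cells had 2 of 5 members at least 1.5-fold lower, Pdcd1 (-0.97) and Cd160, and 1 higher, Tox, against 5.38% and 4.88% of 8444 genes. The Cd160 ratio over all T cells was -0.38 (-0.67 to -0.09), -0.19 with shared class weights and -0.23 as a plain mean over classes, and after thinning 1.81% of agonist and 1.81% of isotype T cells had a count.

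Tox had a higher level in the agonist T cells. All T cells had 455 counts and 67.4 CPM in the agonist library and 396 counts and 48.3 CPM in the isotype library, a ratio of 0.48 (0.28 to 0.68), 0.39 with shared class weights and 0.19 as a plain mean over classes. The share of T cells with a count was 17.1% in agonist and 14% in isotype cells, and after thinning 7.26% (6.2% to 8.44%) and 5.42% (4.53% to 6.43%), where the intervals just overlap. The 3 agonist tables gave 63.3, 62 and 70.7 CPM and the 3 isotype ones 57, 49.4 and 49.2 CPM. The higher ratios were in naive-type and gamma-delta cells. Naive-type CD8 cells had 111 agonist and 62 isotype counts, or 78.5 and 43.9 CPM, a ratio of 0.84 (0.38 to 1.31). Naive-type CD4 cells had 129 and 76 counts, or 107 and 72.9 CPM, a ratio of 0.55 (0.13 to 0.98). Over both naive-type classes the ratio was 0.70 (0.39 to 1.01), and Tox was the 1 member of 3 with a ratio there that was at least 1.5-fold higher, against 4.82% of 8108 genes, with 0 lower, against 3.03%. Gamma-delta cells of both kinds together had 63 agonist and 48 isotype counts, or 56.4 and 34.4 CPM, a ratio of 0.71 (0.15 to 1.29). Those without type 17 markers had a ratio of 0.46, with an interval that spans 0 (-0.22 to 1.13). Type 17 cells had 23 and 9 counts, too few for a ratio.

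Where Tox was highest, in regulatory cells, the level was 165 CPM in agonist and 171 CPM in isotype cells, a ratio of -0.05. CD8 effector-memory-type cells, the class with the highest Pdcd1 level, had 10 agonist and 34 isotype counts, 40.9 and 67.4 CPM, too few for a ratio. NK cells had 54.6 CPM in the agonist and 43.6 CPM in the isotype library, a ratio of 0.33 (0.01 to 0.65). Whether the ratio differs between naive-type and other cells was not tested.

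**Figure D5:**
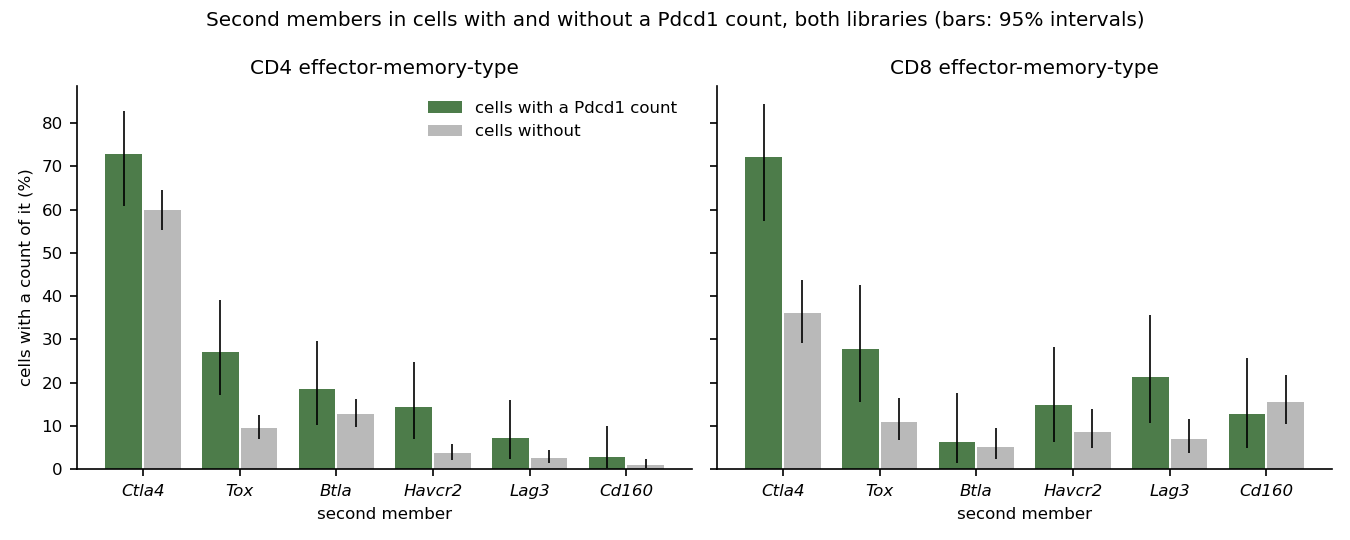
Share of cells in percent (vertical axis, from 0) with a count of a second member, among cells with a Pdcd1 count (green) and cells without one (grey), both libraries together and not thinned, with 95% binomial intervals. In CD8 effector-memory-type cells Ctla4 was found in 72.3% of cells with Pdcd1 and 36.2% of cells without.

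Second members were counted in effector-memory-type cells with and without a Pdcd1 count, and the differences were not tested. In CD8 effector-memory-type cells of both libraries, 47 cells had a Pdcd1 count and 174 had none. Of the cells with Pdcd1, 72.3% (57.4% to 84.4%) had a Ctla4 count, against 36.2% (29.1% to 43.8%) of those without. Lag3 was found in 21.3% (10.7% to 35.7%) of cells with Pdcd1 and 6.9% (3.61% to 11.7%) of those without, where the intervals overlap, and Tox in 27.7% (15.6% to 42.6%) and 10.9% (6.7% to 16.5%). Havcr2 was at 14.9% and 8.62%, with overlapping intervals. Cd160 had no such pattern, at 12.8% with Pdcd1 and 15.5% without. In CD4 effector-memory-type cells, 70 with Pdcd1 and 458 without, Tox was found in 27.1% (17.2% to 39.1%) and 9.39% (6.88% to 12.4%), and Havcr2 in 14.3% (7.07% to 24.7%) and 3.71% (2.18% to 5.88%). Ctla4 was at 72.9% and 60%, and Lag3 at 7.14% and 2.62%, both with overlapping intervals. All 14 regulatory cells with Pdcd1 had a Ctla4 count, but most regulatory cells of either library had one, as given above.

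Thinning lowers every share, so the shares with and without Pdcd1 are to be read against each other at one depth. With 1000 counts per cell, Ctla4 was found in 27.3% of the 22 CD8 effector-memory-type cells with Pdcd1 and 22.7% of the 194 without. Lag3 was at 9.09% (1.12% to 29.2%) and 3.09% (1.14% to 6.61%), and Tox at 13.6% (2.91% to 34.9%) and 5.67% (2.86% to 9.92%), on 2 and 3 cells with both genes. In CD4 effector-memory-type cells Ctla4 was at 41.9% with Pdcd1 and 41.8% without. Tox was at 6.45% (0.791% to 21.4%) of the 31 thinned CD4 cells with Pdcd1 and 3.77% of the 478 without, and Havcr2 at 0% and 1.67%. Over all T cells, thinned, Ctla4 was found in 30.3% (21.8% to 39.8%) of 109 cells with Pdcd1 and 18.5% of 4309 without, and Cd160 in 5.5% (2.05% to 11.6%) and 1.72%. The all-T-cell shares pool classes with unlike levels of both genes, which was not separated here.

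The 2 libraries differed in how many members a CD8 effector-memory-type cell showed. At least 3 members had counts in 8.43% (3.46% to 16.6%) of 83 agonist cells and 23.9% (17.1% to 31.9%) of 138 isotype cells. The median depth of this class was 2444 counts in the agonist and 3491 in the isotype library, and after thinning the shares were 0% of 80 agonist cells (0% to 4.51%) and 2.94% of 136 isotype cells (0.807% to 7.36%), which overlap. In regulatory cells at least 2 members had counts in 48.6% of agonist and 48.3% of isotype cells. In all T cells at least 3 members were found in 4.59% and 6.41% before thinning and 0.372% and 0.529% after it. NK cells with at least 2 members were 15.8% in the agonist and 16% in the isotype library.

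Levels across the 23 named classes put Pdcd1 nearest to Nebl (Pearson r = 0.90), the chemokine receptor gene Cxcr6 (0.88) and Gabarapl2 (0.85) among 7088 genes. Nearest to Ctla4 was Icos (0.93), its neighbour on chromosome 1 and a costimulatory receptor. Cd160 had Klrc1 (0.91), Klrc2 (0.91) and Eomes (0.89), NK cell genes, Havcr2 had Ifitm2 (0.88) and Ifitm3 (0.87), Cd244a had the integrin gene Itgam (0.91), and Tox had Mllt3 (0.93), Trbc1 (0.92) and Cd247 (0.92). For Lag3 the values were 0.82 for Pdzd4 and 0.82 for Slc7a5, for Btla 0.85 for St6gal1, and for Tigit 0.87 for Rgs16. The Tigit value rests on few counts, as its highest class, regulatory cells, had a mean of 10.6 CPM from 8 counts over both libraries. Between members, Ctla4 was most like Tox (0.85) and Pdcd1 (0.76), while Pdcd1 had 0.18 with Lag3 and -0.19 with Havcr2. These values describe 23 classes that share the same libraries and differ in depth, and carry no test.

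Among ligands of the members in T cells, 1 gene passed 1.5-fold. Of 13 ligand genes measured, 9 had a ratio, 8 lower and 1 higher, with 3 intervals below 0 and a median of -0.16, while 53.4% of all genes were lower, 2.77% by at least 1.5-fold, and 11% had intervals below 0. At least 1.5-fold lower was Cd80, the ligand of CTLA-4, with 22 agonist and 47 isotype counts and a ratio of -0.82 (-1.62 to -0.06). Cd48, the ligand of 2B4, was at 108 CPM in agonist and 124 CPM in isotype T cells (-0.19, -0.33 to -0.05) and in NK cells at 152 and 183 CPM (-0.27, -0.44 to -0.10).

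Costimulatory receptors, which oppose the members, stood at a median of 0.09 over 12 genes in T cells, with 4 intervals above 0 and 1 below, against 11.1% and 11% of all genes. Cd28 was at 477 CPM in agonist and 451 CPM in isotype cells (0.08, 0.01 to 0.15), Icos at 459 and 430 CPM (0.10, 0.03 to 0.17) and Slamf6 at 153 and 133 CPM (0.20, 0.07 to 0.32), while Cd27 was at 96.7 and 111 CPM (-0.20, -0.34 to -0.05). None of the 12 passed 1.5-fold in either direction, against 2.77% of all genes lower and 5.04% higher. Of 11 other inhibitory receptors with a ratio, only Klrb1b passed it, with an interval that spans 0 (-0.62, -1.32 to 0.06), and the interval of Lilrb4a lay above 0 (0.35, 0.15 to 0.54).

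Among adaptors and phosphatases downstream, no gene of 11 with a ratio passed 1.5-fold, against 2.77% of all genes lower and 5.04% higher. Of their intervals, 4 lay below 0 and 3 above, against 11% and 11.1% of all genes. Ptpn6, which encodes the phosphatase SHP-1, was at 94.6 CPM in agonist and 122 CPM in isotype T cells (-0.37, -0.51 to -0.22), and in NK cells at 86.8 and 113 CPM (-0.38, -0.60 to -0.16). Ptpn11, which encodes SHP-2, the main partner of PD-1, was at 40.1 and 35 CPM in T cells, with an interval that spans 0 (-0.05 to 0.44). Sh2d1a, the SAP adaptor of 2B4, was at 64.9 CPM in agonist and 83.1 CPM in isotype T cells (-0.36, -0.53 to -0.18).

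Transcription factors of chronic activation had a median of 0.01 over 19 genes with a ratio in T cells. None passed 1.5-fold, against 2.77% of all genes lower and 5.04% higher. Of their intervals, 4 lay below 0 and 4 above, against 11% and 11.1% of all genes. Eomes was at 61.3 CPM in agonist and 76.7 CPM in isotype cells (-0.32, -0.50 to -0.14) and Nfatc1 at 94.6 and 109 CPM (-0.21, -0.36 to -0.06). Tcf7, which marks naive and memory T cells, was at 608 CPM in agonist and 514 CPM in isotype cells (0.24, 0.18 to 0.31) and Irf4 at 46.4 and 37.1 CPM (0.32, 0.09 to 0.55). Tcf7 and the naive-type share were both higher in the agonist library, and that share's part in the Tcf7 ratio was not tested. Tox2, a relative of Tox, had 35 agonist and 29 isotype counts and a ratio of 0.55 (-0.20 to 1.31).

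In CD8 effector-memory-type cells, where Pdcd1 was highest, the 6 other inhibitory receptors with a ratio were all on the higher side in the agonist library, with a median of 0.51, and 2 passed 1.5-fold, against 6.8% of 2822 genes, of which 57.6% were lower. In the same class the 11 NK cell markers summed to 5213 CPM in agonist and 3868 CPM in isotype cells, and the 12 interstitial macrophage markers to 348 and 188 CPM, and their part in these ratios was not tested. At the finer clustering, CD8 effector-memory-type cells formed a cluster led by Gzmk, with 59 agonist and 132 isotype cells. Another, led by Cx3cr1, had 38 agonist and 37 isotype cells. The part of this mix in the ratios of the class was not tested. Vsir, which encodes VISTA, was at 180 CPM in agonist and 109 CPM in isotype cells (0.72, 0.12 to 1.32), Klrg1 at 106 and 59.4 CPM (0.84, 0.02 to 1.65) and Klrc1, which encodes NKG2A, at 421 and 303 CPM (0.48, 0.10 to 0.85). Among costimulatory receptors there, Cd2 was at 196 CPM in agonist and 319 CPM in isotype cells (-0.70, -1.20 to -0.23) and was 1 of 2 genes of the 8 with a ratio that were at least 1.5-fold lower, against 10.9% of genes. In NK cells no gene of the 5 lists passed 1.5-fold, against 2.75% of 9220 genes lower and 5.11% higher. With a ratio there were 7 ligands, 9 costimulatory receptors, 8 other inhibitory receptors, 12 adaptors and phosphatases and 16 transcription factors.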

How the data were processed

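The 6 deposited tables hold cells in rows and 20882 genes in columns. Per the file headers and values, the authors deposited estimated counts (expected counts, mostly whole), a count of expressed genes, the percent of mitochondrial reads and 0/1 flags per cell. Partek and mm10 are named in the submitters' processing notes, while the sources used here name no aligner, counter or version. Each barcode was used 1 time per group, from its highest-total record. The authors' filter was taken from their flag columns, which have no value outside 500 to 4000 expressed genes. Scrublet in scanpy 1.11.5 (rate 0.1, threshold 0.25) marked 8.52% of agonist and 7.39% of isotype cells as doublets, which were removed. Cells were clustered (2000 variable genes without the members, 30 components, 15 neighbours, leidenalg 0.10.2, resolution 1), and lymphocytes again. A class name needed 3 markers, each detected in 10% of the cells. These limits were set after the clusters were seen. Counts were summed per class, rounded, and scaled with TMM factors (edgeR 4.0.16). A ratio needed 50 counts over both libraries, and its interval is an exact binomial one. Levels have exact Poisson and shares Clopper-Pearson intervals at 95%. A count of 0 allows 3 counts. Ratios were tested on simulated data. Alternatives were other doublet, clustering, scaling (DESeq2 1.42.0) and record choices. All 9 members were described in every class, with the 3 most alike genes each and 5 pathway lists. Members and lists were chosen with earlier results of these data known. A search for tyrosine motifs in the proteins was not run.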

Additional observations from a re-analysis of the deposited data

Results flagged for a closer look

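The Pdcd1 ratio had opposite signs in NK cells and in 2 T cell classes. It was -0.94 in CD4 effector-memory-type cells and 0.68 in NK cells, a difference of -1.62, and -0.70 in gamma-delta cells without type 17 markers, a difference of -1.38 from NK cells. Ctla4 had a ratio of -0.99 in type 2 innate lymphoid cells, against 0.53 in dividing T cells (a difference of -1.52), 0.28 in regulatory T cells (a difference of -1.27) and 0.93 in classical monocytes (a difference of -1.92). In each pair both counting intervals leave out 0 on opposite sides. With 1 library per group these differences between classes were not tested.

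Barcodes outside the authors' range of expressed genes, 1512 in the agonist and 1342 in the isotype library, also held counts of the members. Over both libraries there were 407 counts of Pdcd1, 2166 of Ctla4, 458 of Btla, 37 of Tigit, 247 of Lag3, 1551 of Havcr2, 917 of Cd244a, 335 of Cd160 and 290 of Tox. Most Pdcd1 counts lay in the 471 agonist and 660 isotype barcodes with more genes than any cell used, whose median depths were 16656 and 17882 counts. Those held 127 agonist and 277 isotype Pdcd1 counts, or 15.2 and 21.3 CPM, in 9.98% and 13.8% of the barcodes. They were not assigned to classes.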

How the results depend on the processing

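Of the values recomputed under alternatives, 208 stayed within their counting interval, or for counts within 1.5 times, 3 moved further, and no called value changed sign. The Pdcd1 ratio in T cells, -0.76, was -1.16 over cells with the authors' Cd3e flag, where the cause was not tested, and -0.83 to -0.65 when 1 table was left out. The number of members at least 1.5-fold lower in T cells, 3, was 2 to 4 without 1 table and 2 with doublets kept, with the Cd3e flag, from the lowest-total records and with both weightings of the classes, which were chosen after seeing the data, and the number higher was 0 under every alternative. The ratio without 1 table ranged from -1.53 to -1.08 in CD4 T cells and from -1.33 to -0.66 in CD8 T cells for Pdcd1. The Ctla4 ratio in regulatory cells, 0.28, was 0.43 at the finer clustering, and the Tox ratio in T cells, 0.48, was 0.19 as a plain mean over classes. Low counts limit Tigit in T cells and Lag3 and Havcr2 in single T cell classes. No paired analysis was possible because the tables of a group share cells and form 1 sample per group.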
